A study of Mus musculus with 16 samples.

Results

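In mouse embryonic stem cells the mRNAs of Mycn, Mybl2, Sap30l, Polr2f, Tnks2, Ppp1r14b and Cep170b carried short stretches of neighbouring cytosines that bisulfite left partly unconverted. They are 7 of the 13271 genes with an mRNA reference in the libraries and were selected on the measured non-conversion of their cytosines, which had passed a call within a genotype in these same libraries. The level of their stretches, the calls in them and the direction of their genotype differences are therefore given as a description and support nothing beyond themselves, also where a fit over all mRNAs includes them. Run lengths, positions along the mRNA and flanking levels are described beside the same measures over all transcripts. The coverage of each mRNA was tested between genotypes. A call needs a minimum coverage in every library of a genotype, so coverage entered the selection.

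The study sequenced bisulfite-treated RNA from J1 mouse embryonic stem cells that were wild type or Dnmt2-/-, with no further treatment in either group. Dnmt2, listed under the symbol Trdmt1, is a methyltransferase known for placing 5-methylcytosine in transfer RNA. Each genotype had 3 rRNA-depleted libraries of the RNA fraction longer than 200 nt, and these 6 libraries are used here. The cells of both groups were grown on feeder fibroblasts, which were removed by letting them attach to dishes, and the sources used here do not say whether the 3 replicates were separate cultures or the knockout more than 1 clone. The p-values therefore rest on the variation among these libraries, part of which may be technical.

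Bisulfite turns unmethylated cytosine into uracil, which is read as T, while 5-methylcytosine stays C. The share of reads that still show C at a position is called non-conversion, and it is the value reported for methylation in this assay. Cytosines inside folded RNA, or in a molecule that the chemical reached poorly, can also stay C, so that neighbouring cytosines kept together are a known difficulty of the method.

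Every cytosine of the 7 mRNAs with a coverage of 10 or more reads in at least 2 libraries of each genotype was evaluated. It was counted as partly non-converted where the mean over those libraries was 10% or more, and 3 or more such cytosines with neighbours at most 20 nt apart made a stretch. By this rule the 7 mRNAs held 13 stretches with 72 cytosines, and 6 further cytosines stood alone. Their arrangement is shown because it is the pattern on which the description turns. In each line a capital C is a cytosine of the stretch, a small c another listed cytosine and n a position not listed as a cytosine, and nucleotide 1 is the 5′ end of the reference.
Mycn 715 to 719: CCCCC
Mycn 766 to 775: CCCnnnnnCC
Mybl2 127 to 133: CCcnncC
Sap30l 277 to 284: CnnnnCCC
Sap30l 307 to 317: CCnnnCCnCnC
Polr2f 236 to 257: CCCnnnnncnnnncnCCCnnnC
Tnks2 194 to 218: CCCnnnCCCnnnncncnncnccnnC
Tnks2 247 to 253: CCCnnnC
Tnks2 290 to 299: CnnCnnCnnC
Ppp1r14b 21 to 50: CCCnnnnnCnccncnnncnncnncnnCCCC
Ppp1r14b 51 to 55: CnnnC
Ppp1r14b 249 to 257: CCCCnnnCC
Ppp1r14b 300 to 323: CCCnnnnnccncnnncnnnnnCCC
Cep170b 3040 to 3044: CCCCC

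The lines for Ppp1r14b 21 to 50 and 51 to 55 are consecutive pieces of 1 stretch. The bases of its start lie within the RefSeq sequence around the gene's start site and were chosen for printing after the positions were seen, as the only stretch that reaches the first 50 nt. Positions 21 to 50 correspond to chr19:6975068-6975097 of GRCm38.p6, plus strand, with the cytosines of the stretch in capitals.
Ppp1r14b: CCCgggggCtccgcatgctgcagctgCCCC
All 20 cytosines listed for this mRNA up to position 50 are C in the RefSeq sequence. Bases of the other stretches, and whether a stretch lies in the coding part or in a UTR, were not analysed here.

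Across the 6 libraries, coverage summed over all listed cytosines, which counts a read at each cytosine it covers, ran from 37786723 in wild type replicate 3 to 143488903 in wild type replicate 2, with a median coverage per listed cytosine of 6 to 11. The background of a library was its level over mRNA cytosines with a coverage of at least 10 and a non-conversion of at most 10%. It lay between 1.42% and 1.77%. Trdmt1 had a scaled coverage of 4.73, 3.8 and 3.21 in the wild type libraries against 1.42, 0.501 and 1.07 in the knockout ones, without overlap (log2 difference, knockout minus wild type here and throughout, -1.59, SE 0.368, limma adjusted p = 0.375), and the part of the gene that was deleted is not stated in the sources used here. All 10 stem cell markers were listed, Esrrb in only 2 of the libraries. Their summed scaled coverage was 1999.3 to 2410.3 in wild type and 2280.8 to 3050.5 in knockout. Of 10 feeder fibroblast markers 7 were listed, Dcn in only 1 library. Their sums were 35.8 to 64.8 in wild type and 19.3 to 42.4 in knockout. Much of the stem cell sum was Dppa5a, with means of 1163.3 in wild type and 1759.8 in knockout. The more covered Pou5f1 transcript (211 and 178) and Sox2 (61.2 and 57.6) were lower in knockout.

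The cytosines of the stretches sat close together. Of the 59 neighbouring pairs within a stretch, 40 were adjacent bases, and 53 of the 72 cytosines (73.6%) belonged to unbroken runs of at least 3 cytosines, to which 21.5% of all evaluated cytosines of the 7 mRNAs belonged. Over all transcripts 181 of 326 stretch cytosines (55.5%) and 16.3% of all evaluated cytosines lay in such runs. The 7 mRNAs are included there and supply 53 of the 181 and 72 of the 326. The run lengths were tabulated after the positions had been seen, and a stretch rule that asks for close neighbours favours runs.

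Most runs of cytosines in the 7 mRNAs held no partly non-converted cytosine. Of the evaluated cytosines in runs of at least 5, 20.2% were partly non-converted in the 7 mRNAs, on which the selection bears. Over all transcripts, these 7 included, it was 0.312%, against 0.0721% of cytosines without an adjacent cytosine. The 7 mRNAs supply 22 of the 56 partly non-converted cytosines in such runs and 13 of the 542 without an adjacent cytosine. The higher share in long runs thus rests in part on the selected mRNAs. The 7 mRNAs had 250 fully evaluated runs of at least 3 cytosines, of which 18 held a partly non-converted cytosine and 11 were partly non-converted throughout. Of their 20 runs of at least 5 cytosines, 5 held such a cytosine and 3 were partly non-converted throughout, 1 each in Cep170b, Ppp1r14b and Mycn. Mycn had 8 runs of this length and 1 held such cytosines, and Tnks2 had 3 that held none. Mybl2 had 61 runs of at least 3 cytosines, and 2 of these held a partly non-converted cytosine.

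Most of the stretches lay within the first 350 nt of the reference, which is a different share of each mRNA. The last listed cytosine was at 513 in Polr2f, 916 in Ppp1r14b and 6471 in Tnks2. Of the 72 cytosines, 57 (79.2%) were within the first 350 nt, a window chosen after the positions had been seen, and 14.5% of all evaluated cytosines of the 7 mRNAs were in that window. Over all transcripts, these 7 included, the window held 57.1% of stretch cytosines and 17.6% of evaluated ones. Of the 186 stretch cytosines in the window, 57 were those of the 7 mRNAs. The Mycn stretches at 715 to 775 and the Cep170b stretch at 3040 lay outside it.

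**Figure D1:**
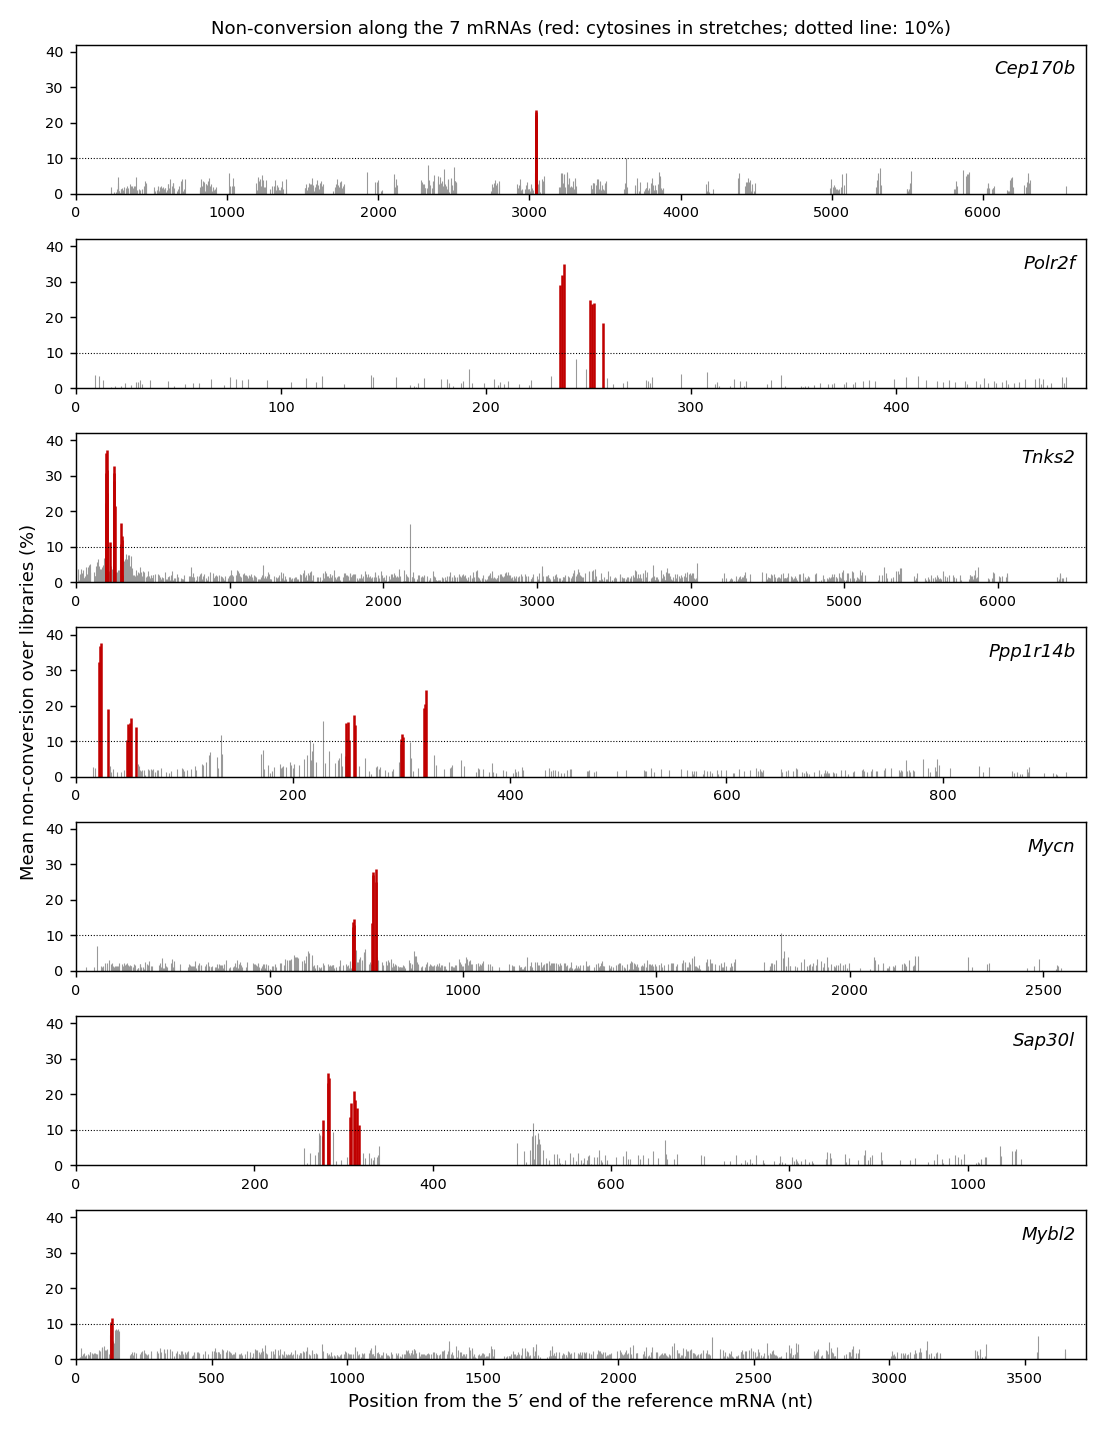
Mean non-conversion (%) over the libraries with a coverage of 10 or more for each evaluated cytosine (vertical lines), against the position in nt from the 5′ end of each reference mRNA, with stretch cytosines in red and a dotted line at 10%. The 57 stretch cytosines within the first 350 nt form the red groups of Polr2f, Tnks2, Ppp1r14b, Sap30l and Mybl2. In Polr2f, the shortest reference, they lie near the middle of the panel. The Mycn stretches at 715 to 775 and the Cep170b stretch at 3040 lie further along. Besides these, 6 lone cytosines reach the line.

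The stretches stood on mRNAs whose other cytosines were near the background of their library. Outside the stretches the level was 1.39% to 2.66% in the 6 libraries across the 7 mRNAs. Unlike the background, this level includes cytosines above 10%. Cytosines within 50 nt of a stretch had a mean of 3.27% (293 cytosines) and those farther away 1.64% (3706 cytosines), with the flank length chosen after the values had been seen. The gap was widest for Mybl2 (4.74% near, 1.62% far) and narrowest for Cep170b (1.84% near, 1.68% far). The near cytosines include lone ones, such as Ppp1r14b 228 (15.8%), and those inside a stretch that missed 10%, such as Polr2f 244 (8.32%). For Mybl2 they include 2 inside the stretch with a mean of 9.4%. The near level is therefore not that of flanking sequence alone. In the other transcripts with a stretch the near cytosines had 2.68% and the far ones 1.72%.

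Mycn, a transcription factor of the MYC family that drives growth and proliferation, carried a run of 5 cytosines at 715 to 719 and a second stretch at 766 to 775. The first had a pooled non-conversion, that is non-converted reads over all reads of its cytosines, of 13.5%, 5.05% and 6.8% in wild type and 17.5%, 20.5% and 14.3% in knockout replicates 1 to 3. All 3 knockout libraries were above all 3 wild type libraries, the means being 17.5% ± 3.1 (SD, n = 3) and 8.45% ± 4.46 (SD, n = 3). The second stretch had 27.2%, 6% and 21.2% in wild type and 31.9%, 35.6% and 24.1% in knockout, with wild type replicate 1 inside the knockout range. Along the second stretch the first cytosine, at 766, had a mean of 13.6%, while 767, 768, 774 and 775 had 27%, 27.9%, 28.7% and 25.1%. The second stretch had 0.425 times the median coverage of the mRNA and the first 1.3 times.

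Mybl2 encodes a MYB family transcription factor that activates genes of the late cell cycle. Its stretch of 3 cytosines had 9.56%, 3.04% and 6.74% in wild type and 18%, 17.4% and 9.64% in knockout. The groups did not overlap, but knockout replicate 3 lay only just above wild type replicate 1. It is the stretch nearest the limit of the rule, as its cytosines at 127, 128 and 133 had means of 10.6%, 10% and 11.8%, and the cytosine at 134 fell just outside with 9.86%. Elsewhere in the set the cytosines just outside were Cep170b 3637 (9.94%) and Ppp1r14b 308 (9.66%), and those just inside Ppp1r14b 47 (10.2%) and 216 (10.3%). Without knockout replicate 1 or 2, or with a minimum of 20%, Mybl2 had no stretch.

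Sap30l encodes a subunit of the Sin3 histone deacetylase complex, which represses transcription. Neither of its stretches had a coverage of 10 in wild type replicate 3, so that wild type rests on 2 libraries. At 277 to 284 the level was 18.6% and 4.88% in wild type replicates 1 and 2 and 21.7%, 23.4% and 37.8% in knockout, and at 307 to 317 it was 15% and 3.92% against 18.8%, 23.2% and 20.5%. In both stretches every knockout library was above both wild type libraries. Sap30l lost its stretches without wild type replicate 1 or without wild type replicate 2, because too few wild type libraries then had the coverage.

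Polr2f, a small subunit shared by the nuclear RNA polymerases, had the highest single-library level of the set. Its stretch had 18.2%, 17.7% and 61.4% in wild type and 21.6%, 9.3% and 21.1% in knockout. Wild type replicate 3 stood far above the other 5 libraries, which gave wild type a mean of 32.4% ± 25.1 (SD, n = 3) and knockout 17.4% ± 6.98 (SD, n = 3). Within that library the cytosine at 238 reached 80% of 25 reads, and the one at 257 32.5% of 40 reads. Coverage across the stretch was 0.362 times the median of the mRNA. The Polr2f reference did not match the RefSeq sequence around the gene's start site (5 of 16 listed cytosines), so its positions hold for the deposited reference only.

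Tnks2 encodes tankyrase 2, an enzyme that adds ADP-ribose chains to proteins such as axin. Its 3 stretches lay close together between 194 and 299. At 194 to 218 the pooled level came to 27.4%, 16.5% and 15% in wild type and 47.2%, 29.5% and 25.8% in knockout, where wild type replicate 3 rests on 2 of 7 cytosines. At 247 to 253 it came to 36.8%, 11.3% and 17.9% in wild type and 38.1%, 44.8% and 21.9% in knockout. In both stretches wild type replicate 1 lay inside the knockout range and the other wild type libraries below it. The stretch at 290 to 299, whose cytosines follow each other at every 3 nt, had 14.5%, 10.6% and 30% in wild type and 5.66%, 10.5% and 19.6% in knockout, the highest value resting on 1 of 4 cytosines. Coverage of the 3 stretches was 0.466 to 0.497 times the median of the mRNA. A lone cytosine far downstream, at 2172, had 10.5%, 16.7% and 14.3% in wild type and 16.7%, 17.6% and 22.6% in knockout at coverages of 21 to 84, and was the highest of the 6 lone ones. The others were Ppp1r14b 134 (11.6%), 216 (10.3%) and 228 (15.8%), Mycn 1822 (10.6%) and Sap30l 512 (11.8%).

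Ppp1r14b encodes an inhibitor of protein phosphatase 1 and had the most stretch cytosines of the set, 22 in 3 stretches. The stretch at the 5′ end, whose bases are printed above, had 11.3%, 4.28% and 22.3% in wild type and 17.7%, 21.5% and 21.4% in knockout. Its 2 clusters of capitals differed in which libraries were high. At position 23 wild type replicate 3 had 60% and knockout replicate 3 64.3%, with 22.9% to 29.2% in the other 4, at 15 to 35 reads. At position 50, with 53 to 162 reads, the range was 3.09% in wild type replicate 2 to 21.9% in knockout replicate 3, and the 3 knockout libraries (16.1%, 20.2% and 21.9%) lay above the 3 wild type libraries (14%, 3.09% and 15.1%). They also did at 47 and 49. At 48, 51 and 55 the genotypes overlapped, with 17.6%, 18.5% and 22.4% in wild type replicate 3 above 15.7%, 16.3% and 18.2% in knockout replicate 1. The 6 other cytosines between the clusters had a mean of 1.76%.

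The Ppp1r14b stretch at 249 to 257 had 17.6%, 4.35% and 19.1% in wild type and 13.5%, 17.2% and 11.6% in knockout, and the one at 300 to 323 had 9.15%, 7% and 22.3% against 17.7%, 16.6% and 27.9%. Both overlapped between genotypes. The cytosine at 300 had 27.6% in knockout replicate 3 and 17.1% in wild type replicate 3 but 4.08% to 6.67% in the other 4 libraries. By contrast the cytosine at 323 had 33%, 32.3% and 28.2% in knockout and 19.4%, 12.5% and 21.7% in wild type. The genotypes did not overlap at 322 either, but at 321 wild type replicate 3 (24.1%) was above knockout replicate 2 (18.8%). Coverage at 249 to 257 was the lowest relative to its mRNA, 0.246 times the median.

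Cep170b, a relative of the microtubule-binding centrosomal protein Cep170, carried a single run of 5 cytosines. It had 17.6%, 14.3% and 27.3% in wild type and 11.5%, 29.6% and 30.6% in knockout, so that knockout replicate 1 was the lowest of all 6 libraries. The cytosines were alike, with means of 19.2% to 23.7%. Wild type replicate 3 had 11 reads at each of the 5 positions. With a coverage minimum of 20 Cep170b had no stretch, because too few knockout libraries then had the coverage. Knockout replicate 1 had 16 to 23 reads at these positions and knockout replicate 2 had 15 to 18.

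**Figure D2:**
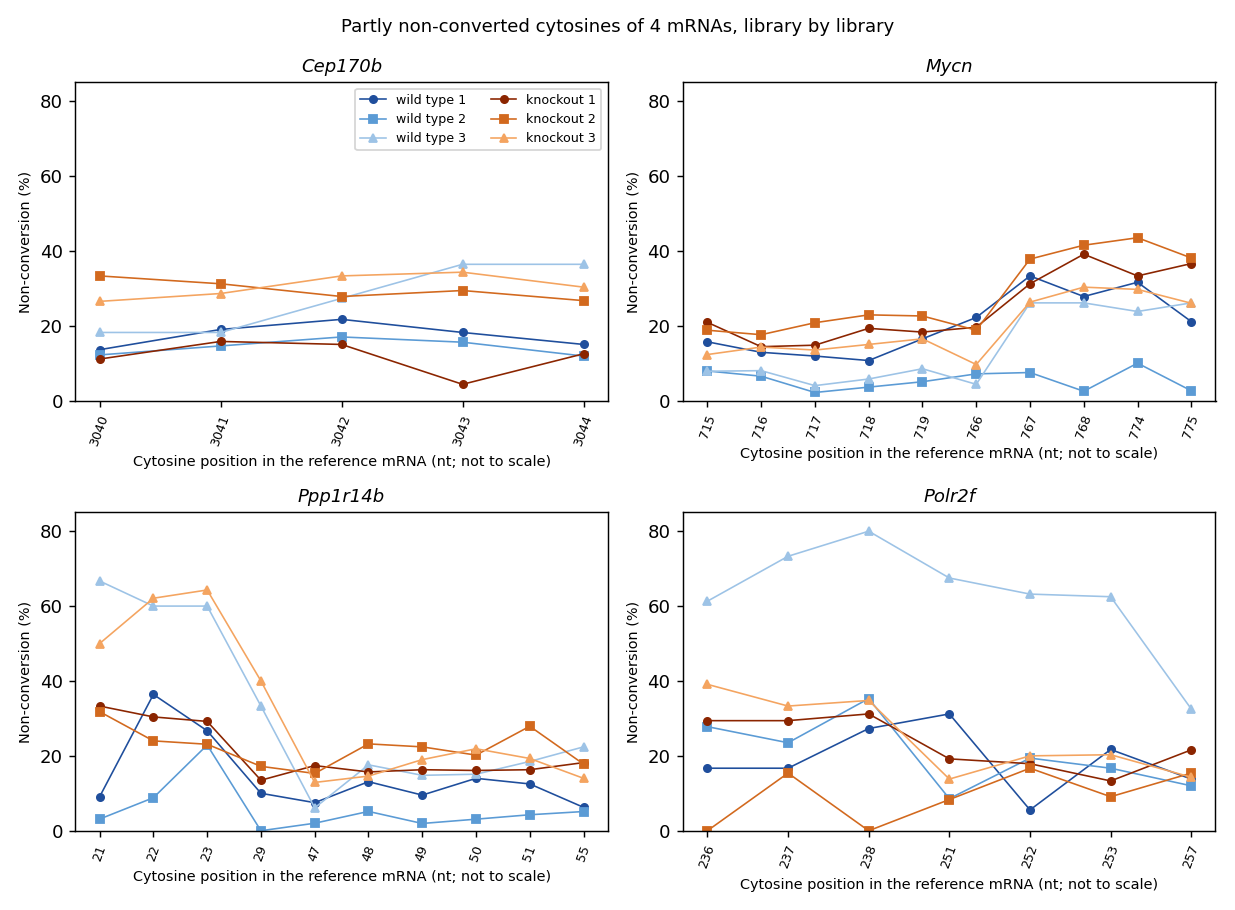
Non-conversion (%) of each stretch cytosine of Cep170b, Mycn and Polr2f, and of the first Ppp1r14b stretch (21 to 55) only, in each library. Positions in nt are listed in order and not to scale, with wild type in blue and knockout in red to orange. In Polr2f the line of wild type replicate 3 reaches 80%, in Ppp1r14b both replicate 3 lines start at 50% or more and fall at position 47, and in Mycn wild type replicate 2 stays at 10% or below.

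Across the 13 stretches the SD between libraries was above the SD between cytosines in 12. The SD between cytosines was taken over means of the libraries, and only over cytosines with a mean of 10% or more. The rule thus narrows it, and nothing is read from this count. The knockout mean was higher in 11 and lower in 2, Polr2f and Tnks2 290 to 299, with a median difference of 8.57 percentage points. All knockout libraries were above all wild type libraries in 4, namely Mycn 715 to 719, Mybl2 and both Sap30l stretches. Wild type replicate 2, the library with the highest coverage, was the lowest library in 9 of the 13. Medians over the stretches were 17.6%, 6% and 21.2% in wild type and 18%, 21.5% and 21.4% in knockout replicates 1 to 3. Without wild type replicate 2 the knockout mean was higher in 10 of 13 and the median difference was 5.83 percentage points. The part of that library in the difference was not tested.

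**Figure D3:**
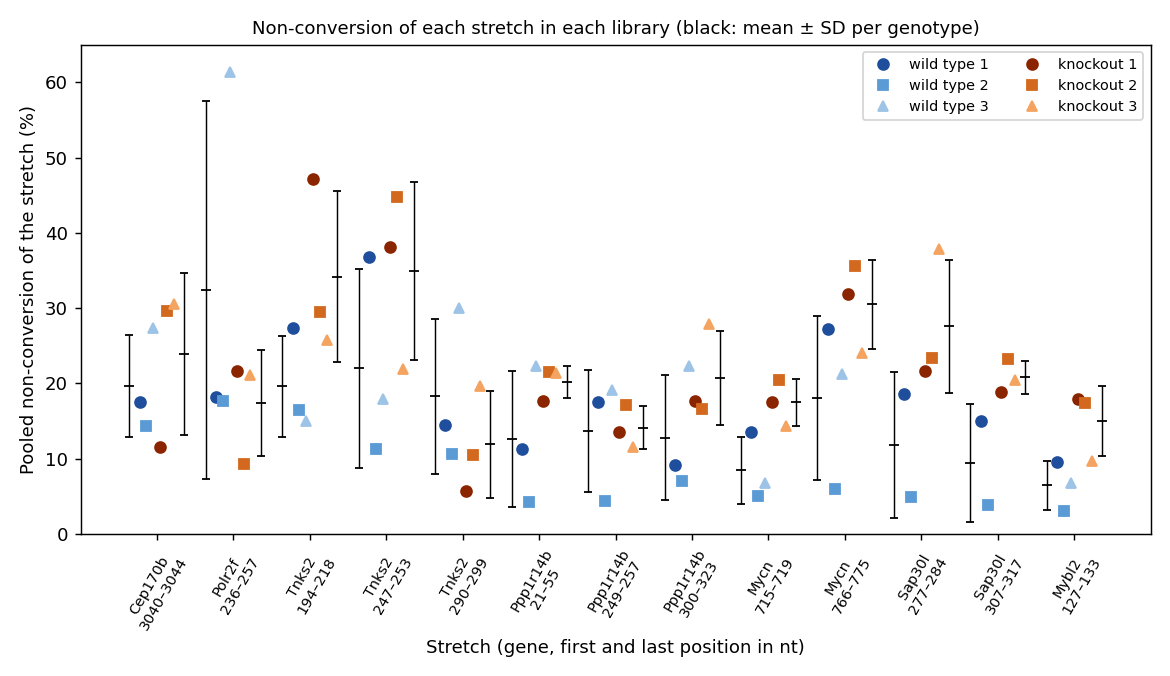
Pooled non-conversion (%) of each of the 13 stretches (labelled by gene and first and last position in nt) in each library, wild type in blue and knockout in red to orange, with the mean ± SD of each genotype in black. Wild type replicate 2 is the lowest point in 9 of 13 stretches, and Polr2f in wild type replicate 3 is the highest point of all at 61.4%.

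Stretches of this kind were rare. Among 5853 transcripts with at least 20 evaluated cytosines, 48 (0.82%) had one, and the 7 mRNAs are among these by their selection. Trim71, a ubiquitin ligase that also binds RNA, had the most stretch cytosines (30), followed by Ppp1r14b (22), Samd1 (17), Tnks2 (15) and Tcfl5 (11). Mdc1 and Igfbp3 had 10 each, as did Mycn and Sap30l. Trim71 had a mean level of 23.2% in its stretches, Mdc1 23.4% and Igfbp3 22.6%, close to Tnks2 (24.1%) and Cep170b (21.8%), while Samd1 (14.4%) and Tcfl5 (12%) were nearer Mybl2 (10.8%).

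The same counts were made for other transcripts. Of 31 stretches of other transcripts that were evaluated in all 6 libraries, 16 (51.6%) had the higher mean in knockout and 1 (3.23%) had all knockout libraries above all wild type libraries. Of the 11 stretches of the 7 mRNAs so evaluated, the counts were 9 (81.8%) and 2 (18.2%), on which the selection bears. Wild type replicate 2 was the lowest library in 16 of the 31 and in 7 of the 11.

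The calls by which the 7 mRNAs had been selected were repeated to name their cytosines. A cytosine was called within a genotype where all 3 libraries had a coverage of at least 10 and a non-conversion of at least 10% and the level was above the library background (one-sided exact binomial test per library, combined by Fisher's method, Benjamini-Hochberg adjusted p below 0.05). In wild type 17 cytosines of the 7 mRNAs were called, against 0.0212% of all cytosines tested, with 5 each in Cep170b and Polr2f, 4 in Tnks2, 2 in Ppp1r14b and 1 in Mycn. In knockout 58 were called, against 0.0283%, with 17 in Ppp1r14b, 11 in Tnks2, 9 each in Mycn and Sap30l, 5 in Mybl2, 4 in Cep170b and 3 in Polr2f. Of the 63 cytosines called in either genotype 57 lay in stretches, 12 were called in both and 5 in wild type alone. A further 30 were called in knockout alone where wild type could be tested, and in these wild type replicate 2 was under 10% in 28, replicate 3 in 11 and replicate 1 in 8, a count made after the levels had been seen. Of 81 such cytosines in other transcripts, replicate 2 was under 10% in 47, replicate 3 in 45 and replicate 1 in 39. The remaining 16, including all 9 of Sap30l, could not be tested in wild type. Without wild type replicate 2 the wild type calls in the 7 mRNAs numbered 34, without replicate 3 26 and without replicate 1 19. The rule then asked for the minimum in 2 libraries in place of 3 and was easier to meet.

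The difference between genotypes was then fitted for each cytosine over all mRNAs. edgeR's quasi-likelihood test on non-converted and converted reads, on 8193 cytosines with a coverage of at least 10 in every library and a mean level of at least 5%, called 0 (0%) at an adjusted p below 0.05, and 202 (2.47%) had an unadjusted p below 0.05. With 3 libraries per genotype and coverages from 10 reads the test can miss true differences, so 0 calls do not show equal levels. Among the 120 cytosines of the 7 mRNAs in the fit 0 were called and 16 had an unadjusted p below 0.05, while 90 were higher and 30 lower in knockout. These counts describe cytosines whose levels in the same libraries had led to the selection, and nothing is read from them. Sap30l had no cytosine that met both the coverage and the level minimum. Fisher's exact test on reads summed over the 3 libraries of a genotype, which ignores the spread between libraries, called 27 (0.33%). Of those 27, 13 were in Ppp1r14b (7), Mybl2 (4) and Mycn (2), a count on which the selection bears in the same way. Reads made by PCR without molecular identifiers are not independent molecules, so that tests on reads cover counting error only.

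The amount of each mRNA was measured as its mean coverage per listed cytosine after TMM scaling. Its genotype difference was not itself a criterion, but the calls behind the selection needed a coverage of at least 10 in every library of a genotype. Mybl2 had 0 calls in wild type and 5 in knockout, and Mycn 1 and 9. The coverage test is therefore not independent of the selection. In bulk RNA, fewer cells with an mRNA and less of it per cell cannot be told apart. Mycn had 76, 59.9 and 97.2 reads in wild type and 116, 108 and 142 in knockout replicates 1 to 3. Mybl2 had 116, 98.3 and 124 in wild type and 169, 152 and 141 in knockout. These were the 2 of the 7 mRNAs in which all knockout libraries lay above all wild type libraries, as they did in 6.09% of 11240 transcripts. The log2 difference was 0.67 for Mycn (SE 0.195, limma adjusted p = 0.41) and 0.46 for Mybl2 (SE 0.139, limma adjusted p = 0.436), and neither passed. Over the alternatives the adjusted p ran from 0.161 to 1 for Mycn and from 0.242 to 1 for Mybl2.

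The other 5 mRNAs overlapped between genotypes. Sap30l had 13.8, 13.7 and 14.2 reads in wild type and 18, 15.2 and 13.1 in knockout (log2 difference 0.13, SE 0.147, limma adjusted p = 0.976). Polr2f had 87.6, 87.6 and 138 against 99.8, 82.8 and 124, both replicate 3 libraries being the highest of their genotype. The log2 differences of Tnks2 (0.04, SE 0.129), Ppp1r14b (0.04, SE 0.133), Polr2f (-0.02, SE 0.221) and Cep170b (-0.01, SE 0.155) were within 1 SE of 0. Over all transcripts limma called 0 of 11240 (0%) and 775 (6.9%) had an unadjusted p below 0.05, while edgeR on rounded coverage called 0 and gave 389 unadjusted. Without knockout replicate 1 the count was 1, and none of the 7 mRNAs passed in any alternative.

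**Figure D4:**
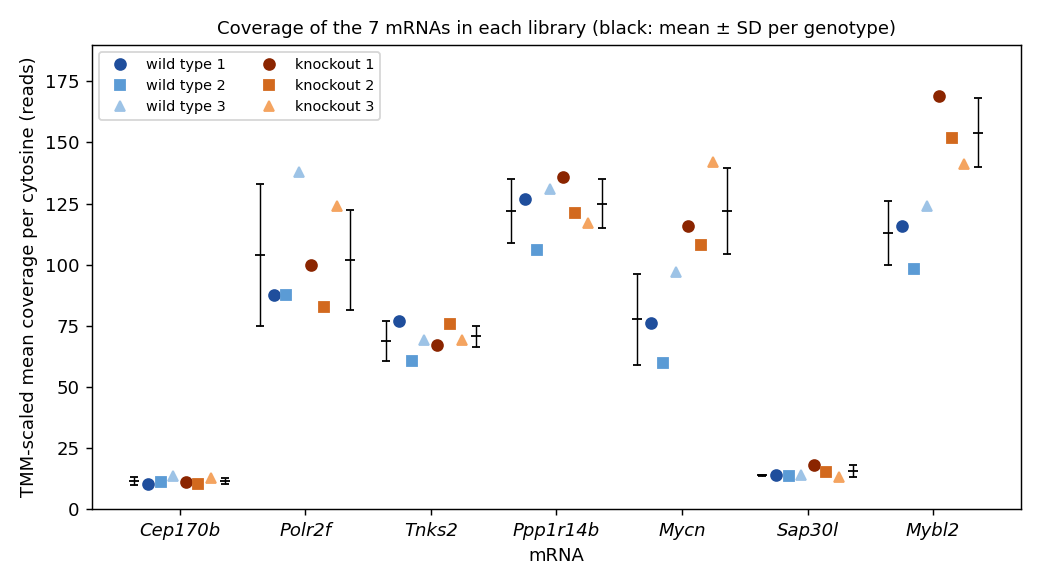
TMM-scaled mean coverage per listed cytosine (reads) of the 7 mRNAs in each library, wild type in blue and knockout in red to orange, with the mean ± SD of each genotype in black. Mycn and Mybl2 are the 2 mRNAs whose knockout points all lie above the wild type points, and the differences did not pass the test across all transcripts.

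Close relatives and partners of the 7 proteins were taken as a list of 32 genes, among them the other subunits of RNA polymerase II, the Sin3 complex, the MYC and MYB families with the LIN proteins that work with Mybl2, tankyrase and the axins. Of these, 15 had enough evaluated cytosines, and 0 had a stretch, against 0.82% of all transcripts. In the coverage test 27 of the genes, with 33 transcripts, were measured. None passed by limma, 6 transcripts had an unadjusted p below 0.05, and 20 were higher and 13 lower in knockout. The median log2 difference of these transcripts was 0.07, against 0.03 over all transcripts.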

How the data were processed

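The authors deposited, for each library, the coverage (a read count) and the non-converted share (a fraction) of each cytosine of reference transcripts, per the file headers, with a lowest listed coverage of 3. BSMAP and the build mm9 are named, per the submitters' processing notes; the version, filters and duplicate handling were not given in the sources used here. Multiplying coverage by the fraction gave whole numbers of non-converted reads within 0.01. Only the 6 rRNA-depleted long libraries were used; the small RNA and undepleted libraries were not used here. Gene names and the printed bases come from RefSeq tables of GRCm38.p6, matched by accession without version.

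The members and lists were chosen with earlier results of these data known. The text names the 7 genes with all their stretches, the 5 other genes with the most stretch cytosines, and partners with a stretch or past the coverage test. Stem cell markers were Pou5f1, Sox2, Nanog, Zfp42, Dppa5a, Klf4, Esrrb, Tdgf1, Utf1 and Fgf4, and feeder markers Col1a1, Col1a2, Col3a1, Thy1, Postn, Lum, Dcn, Acta2, Pdgfrb and Loxl1. Cytosines were tested with edgeR 4.0.16 and coverage with limma 3.58.1 (R 4.3.3) on log2(scaled coverage + 0.5) for transcripts with a mean of 1 or more, so that a log2 difference understates the change of low transcripts. Benjamini-Hochberg adjustment ran over all features. Alternatives are given in the closing section.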

Additional observations from a re-analysis of the deposited data

How the results depend on the processing

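No cytosine or transcript passed with a replicate block (0 and 0), nor under the other alternatives apart from these: Fisher's test on summed reads called 27 cytosines (13 of the 7 mRNAs), and leaving out 1 library gave 0 to 1 cytosines (1 without wild type replicate 3) and 0 to 1 transcripts (1 without knockout replicate 1). The libraries were compared as deviations from the mean of their genotype. Same-numbered libraries of the genotypes then correlated at 0.08, 0.11 and 0.24 in non-conversion and 0.14, 0.04 and 0.30 in coverage. The replicate 3 libraries correlated best with each other. Their correlations with replicates 1 and 2 of the other genotype were negative, -0.10 to -0.17 in non-conversion and -0.10 to -0.28 in coverage. Not every library correlated best with its own number, as wild type replicate 1 was closer to knockout replicate 2 (0.09 and 0.21). The numbers were therefore not taken as pairs. The stretches depended on the limits: the 7 mRNAs had 72 stretch cytosines, 154 at a minimum level of 5%, 30 at 20%, 41 at a coverage of 20, and 51 to 73 with 1 library left out. Transcripts with a stretch numbered 48, then 770, 15 and 25 under those limits, 30 with coverage in all 6 libraries, and 34 to 47 with 1 library left out. With a coverage of 20 the wild type calls fell from 162 to 77 (from 17 to 4 in the 7 mRNAs) and the knockout calls from 387 to 217 (from 58 to 44). With 1 replicate left out, wild type calls were 216 to 357 (19 to 34 in the 7 mRNAs) and knockout calls 510 to 578 (63 to 68). A call asks for the minimum in every library used, so leaving 1 out makes the rule easier to meet. These higher counts are therefore no measure of stability. Leaving out replicate 1 or 2 for the calls, and any library for the genotype direction of stretches, was chosen after seeing the data: the knockout mean was higher in 10 to 11 of 13 stretches. Low coverage of wild type replicate 3 limits Sap30l, Cep170b and Tnks2, and that of knockout replicates 1 and 2 also limits Cep170b.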
